A study of Mus musculus with 12 samples.

Results

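The Kruppel-like factors described here are 10 transcription factor genes, Klf2, Klf3, Klf4, Klf5, Klf6, Klf7, Klf9, Klf10, Klf13 and Klf15, measured in mouse kidneys after ischemia and reperfusion. They were chosen by name, and each is represented by the array's probe sets whose platform annotation names that gene and no other. These are 34 of the array's 45101 probe sets. Testing was limited to probe sets whose signal exceeded the 40th percentile of the array on 3 or more of the 12 arrays. Of the 34 probe sets, 31 passed, and all 10 genes had at least 1 that did. The 3 that did not pass were 1 each of Klf3, Klf5 and Klf13, with signals of 6.62 to 39.2, 3.05 to 61.0 and 3.13 to 48.7 over the 12 arrays. The 10 genes stand among 14322 genes tested.

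Kruppel-like factors bind GC-rich and CACCC-type DNA through a row of C2H2 zinc fingers near the carboxyl end, and the parts outside the fingers set whether a factor activates or represses. KLF2 and KLF4 are known as shear-responsive factors of endothelium, and KLF4 and KLF5 are known from epithelia. KLF6 and KLF10 are known as genes induced quickly by injury or by TGF-beta, and KLF9, KLF13 and KLF15 belong to the members studied for glucocorticoid or circadian control. In the kidney, KLF15 is known from podocytes and KLF5 from the collecting duct.

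Whole kidneys came from male mice that were bought at 8 weeks of age. The TLR4 null mice are of the C57BL/10ScNJ substrain, in which Toll-like receptor 4, a receptor of bacterial lipopolysaccharide, is missing, and the wild-type mice are C57BL/10. A substrain difference other than Tlr4 cannot be told apart from the genotype. The 4 groups were TLR4 null ischemic, TLR4 null sham, wild-type ischemic and wild-type sham, each with 3 arrays that the labels call biological replicates. In the ischemic groups the pedicle of the left kidney was clamped for 23 min and the kidney was taken at 4 h of reperfusion, and in the sham groups the clip was laid under the pedicle. Every mouse, sham mice included, had lost its right kidney in the same operation under isoflurane, so the sham kidney is not an unoperated one. The comparisons ask how these genes respond to ischemia in each genotype and whether the response or the level differs without TLR4.

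Signals are linear MAS5 intensities, and the median signal of an array ran from 61.2 to 77.4. Pearson's r across genes, which are not independent replicates, was 0.963 to 0.979 between arrays of a group and 0.933 to 0.976 between arrays of different groups. The 3' to 5' signal ratios were 1.68 to 2.01 for actin and 0.641 to 0.708 for Gapdh. A Tlr4 probe set gave 0.901 to 3.38 on the TLR4 null arrays, against 65.6 to 120 on the wild-type arrays. The other Tlr4 probe set past the filter gave 6.33 to 60.4 on TLR4 null arrays, against 72.9 to 135 on wild-type arrays, and whether either falls within the deletion is not known here. The proximal tubule markers Slc34a1, Lrp2 and Aqp1 had mean signals of 12358, 4925 and 4981, so markers of the labelled organ were abundant. In whole tissue, fewer cells of a type and less RNA per cell cannot be told apart.

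Promoter sequences of 3 members are shown because these genes had among the largest differences between ischemic and sham kidneys and share a motif. The sequences are RefSeq's on GRCm38.p6 and hold 250 bases before and 50 after the annotated start, on the gene's strand, 5' to 3'. Klf6 is at chr13:5861239-5861538 on the + strand, Klf4 at chr4:55532426-55532725 on the - strand and Klf15 at chr6:90462326-90462625 on the + strand. The Klf6 and Klf4 windows are placed on the outer end of the gene in the gene table, whereas the start used for Klf15 lies 1533 bases inside it, so its window covers another start than the outermost one. Capitals mark the E-box CACGTG, a letter pattern bound by clock and Myc-type factors.
Klf6: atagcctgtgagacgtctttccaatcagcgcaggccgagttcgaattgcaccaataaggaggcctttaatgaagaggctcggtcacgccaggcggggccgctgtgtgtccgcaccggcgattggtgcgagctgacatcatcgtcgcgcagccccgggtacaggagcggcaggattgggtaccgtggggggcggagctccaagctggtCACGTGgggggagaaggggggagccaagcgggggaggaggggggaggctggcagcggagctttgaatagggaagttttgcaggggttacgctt
Klf4: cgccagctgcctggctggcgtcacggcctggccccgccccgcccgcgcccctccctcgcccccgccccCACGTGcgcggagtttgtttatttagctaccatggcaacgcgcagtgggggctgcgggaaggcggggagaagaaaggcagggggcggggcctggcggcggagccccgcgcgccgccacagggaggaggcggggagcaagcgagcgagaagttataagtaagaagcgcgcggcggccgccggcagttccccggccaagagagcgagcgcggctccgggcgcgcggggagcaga
Klf15: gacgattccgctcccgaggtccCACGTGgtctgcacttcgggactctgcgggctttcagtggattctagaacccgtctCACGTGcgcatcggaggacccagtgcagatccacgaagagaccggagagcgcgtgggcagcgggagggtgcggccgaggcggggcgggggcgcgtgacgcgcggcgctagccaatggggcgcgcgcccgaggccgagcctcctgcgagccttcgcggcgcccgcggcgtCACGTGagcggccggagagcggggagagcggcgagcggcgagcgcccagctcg
Of the 10 members, 8 had a promoter in the table, and Klf5 and Klf10 did not. CACGTG was in 3 of the 8, once in Klf6, once in Klf4 and at 3 places in Klf15, and in 7.15% of all 32851 promoters of the same length. The E-box is shared by genes whose differences ran in opposite directions. The GC box GGGCGG, searched on both strands like every motif here, was in 7 of the 8 members (all but Klf9) and in 35.7% of all promoters. The cyclic AMP response element TGACGTCA was in 0 of 8 members and in 1.79% of all promoters. Its shorter form TGACG, which lies within the full element, was in 6 of 8 members (Klf2, Klf3, Klf4, Klf9, Klf13 and Klf15) and in 20.8% of all promoters. The AP-1 motif TGANTCA was in 1 member (Klf9) and in 7.81% of all promoters. The heat shock element GAANNTTC and the CArG box of serum response factor were in 0 of the 8 members, and in 7.86% and 1.63% of all promoters. These are letter matches in a window and say nothing of factor binding.

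Ischemia split the family. Klf4, Klf5, Klf6 and Klf7 were higher in ischemic than in sham kidneys of both genotypes, Klf15 was lower in both, Klf13 passed the test as lower in TLR4 null kidneys, and Klf2, Klf3, Klf9 and Klf10 did not pass it in either genotype. The test was limma on log2(signal + 15) with a mean for each group, and a gene was called at a Benjamini-Hochberg adjusted p under 0.05 over all 14322 genes. Folds and shares of the sham level below are taken from these log2 differences. They are thus ratios of signal + 15 and not of the signals themselves. In TLR4 null kidneys 4 members were called higher and 2 lower, where 9.86% of all genes were called higher and 11.7% lower. In wild-type kidneys 4 were called higher and 1 lower, where 9.17% of all genes were called higher and 10.5% lower. The median difference of the 10 members was 0.047 on the log2 scale in TLR4 null and 0.20 in wild-type kidneys, beside medians over all genes of -0.072 in TLR4 null and -0.088 in wild-type kidneys. The ischemic and sham arrays did not overlap for 6 of the 10 members in TLR4 null kidneys, where 34.0% of all genes did not overlap, and for 6 in wild-type kidneys, where the share was 39.3%.

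**Figure D1:**
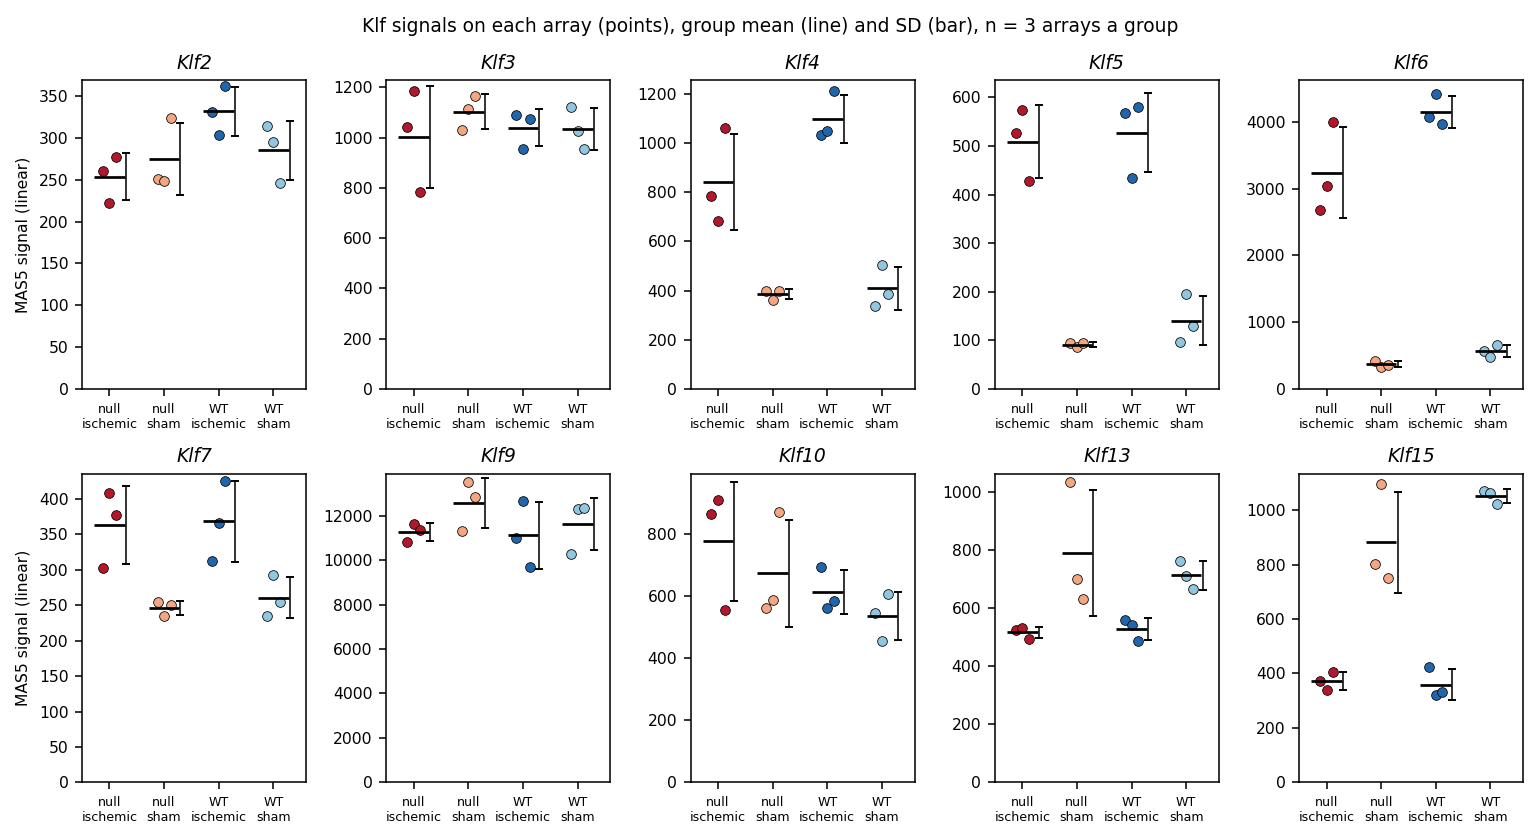
MAS5 signal (linear axis from 0) of each of the 10 Klf genes on each of the 12 arrays (points), by group, with the group mean as a line and the SD as a bar. Klf6, Klf5 and Klf4 stand higher in both ischemic groups than in the sham groups and Klf15 stands lower, and Klf9 stays between 9675 and 13504 on all 12 arrays.

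Klf6 had the largest response of the family. Its signal was 2684, 3035 and 4001 in TLR4 null ischemic kidneys, against 418, 336 and 367 in TLR4 null sham kidneys. It was 4066, 4417 and 3959 in wild-type ischemic kidneys, against 571, 486 and 654 in wild-type sham kidneys. Every ischemic array lay above every sham array, and the lowest ischemic signal was a TLR4 null one. The group means were 3240 ± 682 in TLR4 null ischemic, 374 ± 41.4 in TLR4 null sham, 4147 ± 239 in ischemic wild-type and 570.5 ± 84.2 in sham wild-type kidneys (SD, n = 3 each). The rise was 3.05 ± 0.14 on the log2 scale (SE, 8.29-fold, limma adjusted p = 2.6e-09) in TLR4 null and 2.84 ± 0.14 (7.15-fold, adjusted p = 6.14e-09) in wild-type kidneys. Ranked from the highest difference among 14322 genes, Klf6 stood at place 22 in TLR4 null and 34 in wild-type kidneys. All 5 Klf6 probe sets were called higher in both genotypes, by 1.80 to 3.05 in TLR4 null and by 2.16 to 3.08 in wild-type kidneys. Two-sided tests of the probe sets were adjusted over 30326 probe sets, of which 8.49% were called higher in TLR4 null and 7.71% in wild-type kidneys. The annotation gives the same accession to 2 of the 5 Klf6 probe sets, so those are not independent measurements.

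Klf5, a factor of proliferating and ductal epithelium, rose in both genotypes by its brightest probe set. Its signal was 526, 573 and 428 in TLR4 null ischemic kidneys, against 94.8, 85.8 and 93.7 in TLR4 null sham kidneys. It was 568, 433 and 580.4 in wild-type ischemic kidneys, against 96.3, 196 and 130.0 in wild-type sham kidneys. The groups did not overlap, and wild-type sham replicate 2 was the highest of the 6 sham arrays. The rise was 2.29 ± 0.20 on the log2 scale (4.89-fold, limma adjusted p = 1.35e-06) in TLR4 null and 1.84 ± 0.20 (3.57-fold, adjusted p = 9.97e-06) in wild-type kidneys. The other Klf5 probe set past the filter gave 0.64 (adjusted p = 0.0678) in TLR4 null and 0.50 (adjusted p = 0.164) in wild-type kidneys. With the mean of both probe sets in place of the brighter one, the gene rose by 1.47 in TLR4 null and 1.17 in wild-type kidneys. By the same mean Klf4 rose by 0.87 in TLR4 null and 1.24 in wild-type kidneys, so Klf5 lay below Klf4 in wild-type kidneys on that measure and above it by the brightest probe sets.

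Klf4, an inhibitor of proliferation in epithelia and a flow-responsive factor of endothelium, also rose in both genotypes. Its signal was 783, 683 and 1060.2 in TLR4 null ischemic kidneys, against 399, 364 and 397 in TLR4 null sham kidneys. It was 1033, 1051 and 1211 in wild-type ischemic kidneys, against 338, 505 and 385 in wild-type sham kidneys. The ischemic and sham arrays did not overlap, and 2 of the 3 TLR4 null ischemic arrays lay below all wild-type ischemic arrays. The rise was 1.07 ± 0.16 on the log2 scale (2.10-fold, limma adjusted p = 0.000181) in TLR4 null and 1.41 ± 0.16 (2.65-fold, adjusted p = 1.44e-05) in wild-type kidneys. The other Klf4 probe set, annotated to the same accession, gave 0.68 ± 0.23 (adjusted p = 0.0569) in TLR4 null kidneys, where its groups overlapped, and 1.06 ± 0.23 (adjusted p = 0.0049) in wild-type kidneys.

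Klf7, a factor best known from neurons and fat cells, showed the smallest of the called rises. Its signal was 302, 409 and 378 in TLR4 null ischemic kidneys, against 254, 235 and 249.9 in TLR4 null sham kidneys. It was 313, 367 and 426 in wild-type ischemic kidneys, against 235, 293 and 255 in wild-type sham kidneys. No ischemic array lay below a sham array of its genotype. The rise was 0.52 ± 0.14 on the log2 scale (limma adjusted p = 0.0148) in TLR4 null and 0.47 ± 0.14 (adjusted p = 0.0283) in wild-type kidneys. Of the 4 Klf7 probe sets, all annotated to 1 accession, 3 were called higher in each genotype, with differences of 0.24 to 0.80 in TLR4 null and 0.25 to 0.77 in wild-type kidneys. The call rests on few arrays. Without TLR4 null ischemic replicate 2 or TLR4 null sham replicate 2 the adjusted p was 0.0631 or 0.0513 in TLR4 null kidneys. In wild-type kidneys it was 0.0662 or 0.13 without ischemic replicate 2 or 3, and 0.114 or 0.0809 without sham replicate 1 or 3.

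Klf15, known for glucocorticoid-induced control of amino acid and lipid metabolism and for podocyte differentiation, had the largest fall of the family. Its signal was 374, 339 and 406 in TLR4 null ischemic kidneys, against 804, 1094 and 749 in TLR4 null sham kidneys. It was 424, 321 and 332 in wild-type ischemic kidneys, against 1069, 1063 and 1022 in wild-type sham kidneys. All 6 ischemic arrays lay below all 6 sham arrays. The fall was -1.19 ± 0.14 on the log2 scale (0.437 of the sham level, limma adjusted p = 2.23e-05) in TLR4 null and -1.52 ± 0.14 (0.348 of the sham level, adjusted p = 2.2e-06) in wild-type kidneys. Ranked from the highest difference, Klf15 stood at place 14224 of 14322 genes in TLR4 null and at 14292 in wild-type kidneys. The gene has 1 probe set on the array.

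Klf13, a factor known from lymphocytes and heart, differed by less. Its signal was 527, 531 and 496 in TLR4 null ischemic kidneys, against 1037, 701 and 632 in TLR4 null sham kidneys. It was 559, 542 and 487 in wild-type ischemic kidneys, against 764, 714 and 665 in wild-type sham kidneys. The groups did not overlap in either genotype, and TLR4 null sham replicate 1 stood above the other sham arrays. The size was -0.56 ± 0.14 on the log2 scale (limma adjusted p = 0.0105) in TLR4 null and -0.42 ± 0.14 (adjusted p = 0.0507) in wild-type kidneys. Without TLR4 null sham replicate 1 the TLR4 null difference shrank to -0.35 (adjusted p = 0.0339). The wild-type difference had an adjusted p of 0.00645 without that array and of 0.0347 without replicate 3 of the same group. The other Klf13 probe set past the filter gave -0.29 (adjusted p = 0.214) in TLR4 null and -0.17 (adjusted p = 0.493) in wild-type kidneys.

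**Figure D2:**
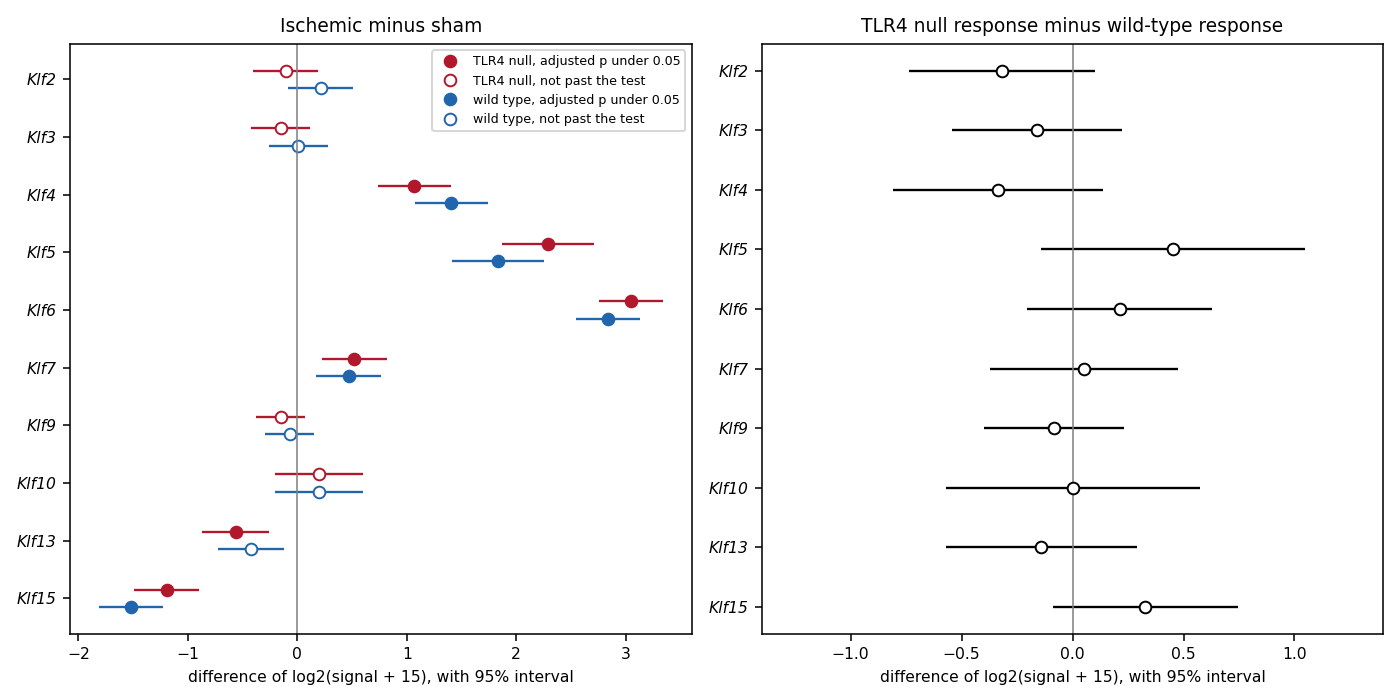
Difference of ischemic minus sham kidneys on the log2 scale for each of the 10 Klf genes in TLR4 null and in wild-type mice (left panel) and difference of these responses (right panel), with 95% confidence intervals from limma and filled points past the test. Klf6, Klf5 and Klf4 lie above 1 in both genotypes, Klf15 lies below -1 in both, and every interval of the right panel includes 0.

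Klf2, Klf3, Klf9 and Klf10 did not pass the test in either genotype. Klf2, a factor that keeps endothelium quiescent, had signals of 261, 223 and 277 in TLR4 null ischemic kidneys, against 251, 249 and 324 in TLR4 null sham kidneys. Its signals were 331, 303 and 362 in wild-type ischemic kidneys, against 314, 295 and 246 in wild-type sham kidneys. The groups overlapped in both genotypes, and the differences were -0.10 ± 0.14 in TLR4 null (limma adjusted p = 0.666) and 0.21 ± 0.14 in wild-type kidneys (adjusted p = 0.327).

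Klf3, a repressor that works with CtBP, had signals of 1043, 1185 and 783 in TLR4 null ischemic kidneys, against 1029, 1115 and 1166 in TLR4 null sham kidneys. Its signals were 1090.2, 954 and 1075 in wild-type ischemic kidneys, against 1123, 1026 and 953 in wild-type sham kidneys. The groups overlapped, and the differences were -0.15 ± 0.13 (limma adjusted p = 0.455) in TLR4 null and 0.0082 ± 0.13 (adjusted p = 0.976) in wild-type kidneys. Its probe sets disagreed. One of the 6 past the filter gave 509.9, 536 and 598 in TLR4 null ischemic kidneys, against 459, 378 and 365 in TLR4 null sham kidneys. That probe set was called higher in TLR4 null kidneys (0.44 ± 0.13, adjusted p = 0.0294 over all probe sets) and gave -0.16 (adjusted p = 0.487) in wild-type kidneys. The difference of the genotypes' responses for it was 0.60 (unadjusted p = 0.00542, adjusted p = 0.608).

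Klf9, a hormone- and clock-responsive repressor, had signals of 10831, 11609 and 11368 in TLR4 null ischemic kidneys, against 11319, 13504 and 12854 in TLR4 null sham kidneys. In wild-type mice they were 11001, 12662 and 9675 in ischemic kidneys, against 10260.1, 12276 and 12346 in sham kidneys. The groups overlapped in both genotypes, and the differences were -0.15 ± 0.10 (limma adjusted p = 0.352) in TLR4 null and -0.069 ± 0.10 (adjusted p = 0.702) in wild-type kidneys. The 7 Klf9 probe sets gave -0.27 to 0.15 in TLR4 null and -0.21 to 0.067 in wild-type kidneys. One of them was called lower in TLR4 null kidneys, with signals of 7256, 7747 and 7387 in ischemic kidneys, against 8954, 9155 and 8860.2 in sham kidneys. Its difference was -0.27 ± 0.078 (adjusted p = 0.0284 over all probe sets), and it was -0.13 (adjusted p = 0.309) in wild-type kidneys.

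Klf10, also called TGF-beta-inducible early gene, had signals of 863, 908 and 556 in TLR4 null ischemic kidneys, against 561, 585 and 870.2 in TLR4 null sham kidneys. Its signals were 693, 562 and 584 in wild-type ischemic kidneys, against 544, 454 and 607 in wild-type sham kidneys. In TLR4 null mice ischemic replicate 3 lay below all 3 sham arrays, and sham replicate 3 lay between the other ischemic arrays. The difference was 0.20 ± 0.19 in each genotype (limma adjusted p = 0.524 in TLR4 null and 0.525 in wild-type kidneys).

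**Figure D3:**
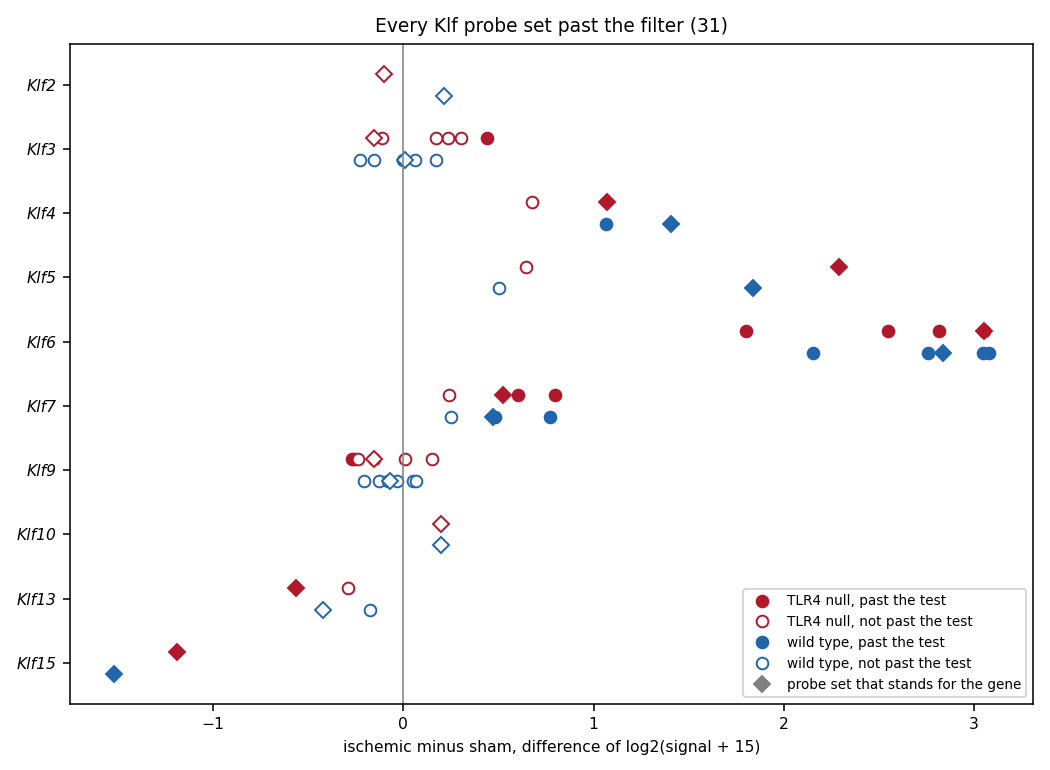
Difference of ischemic minus sham kidneys on the log2 scale for each of the 31 Klf probe sets past the filter, with TLR4 null above wild type, filled symbols where the adjusted p over all probe sets was under 0.05, and a diamond for the one used in the gene tests. All 5 Klf6 probe sets lie at 1.80 or above in both genotypes, whereas the 2 Klf5 probe sets lie apart from each other and the 6 Klf3 probe sets lie on both sides of 0.

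Over the 31 probe sets, 11 were called higher and 3 lower in TLR4 null kidneys, and 11 higher and 1 lower in wild-type kidneys. Of all 30326 probe sets, 8.49% were called higher and 8.23% lower in TLR4 null kidneys, and 7.71% higher and 7.91% lower in wild-type kidneys. The other 17 Klf probe sets in TLR4 null and 19 in wild-type kidneys did not pass. The 3 lower ones in TLR4 null kidneys belong to Klf9, Klf13 and Klf15.

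The order of the members' responses within each genotype was read from the intervals of the brightest probe sets, and for Klf5 and Klf4 in wild-type kidneys it turned with the mean of probe sets. In TLR4 null kidneys Klf6 (95% interval 2.76 to 3.35) lay above Klf5 and Klf5 above Klf4, with no overlap of neighbouring intervals. By other probe sets this order was not firm. The lowest Klf6 probe set (1.80, interval 1.29 to 2.31) overlapped the brightest Klf5 probe set (1.87 to 2.71) there. The other Klf5 probe set (0.64, interval 0.16 to 1.13) lay below the brightest Klf4 probe set (1.07). In wild-type kidneys the interval of Klf6 (2.54 to 3.13) lay above that of Klf5 (1.42 to 2.26), and the intervals of Klf5 and Klf4 (1.07 to 1.74) overlapped. Signals of different probe sets are not set against each other here, since each probe set has its own brightness.

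Whether the response depended on the genotype was tested as the TLR4 null response minus the wild-type response. No member passed (0 of 10 called, 0 at an unadjusted p under 0.05 by limma), and over all genes 0% were called, with 913 genes at an unadjusted p under 0.05 and a smallest adjusted p of 0.244. The difference of the responses was 0.21 (95% interval -0.20 to 0.63) for Klf6, 0.45 (-0.14 to 1.05) for Klf5, -0.34 (-0.81 to 0.14) for Klf4 and 0.053 (-0.37 to 0.48) for Klf7. It was 0.33 (-0.089 to 0.75) for Klf15 and -0.14 (-0.57 to 0.29) for Klf13. Among the members without a call it was -0.32 (-0.74 to 0.10) for Klf2, -0.16 (-0.54 to 0.22) for Klf3, -0.084 (-0.40 to 0.23) for Klf9 and 0.0020 (-0.57 to 0.57) for Klf10. These intervals leave room for genotype differences of up to about 1.05 log2 units in the case of Klf5. They do not show that the responses were alike.

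Levels were also compared between genotypes within each surgery. In ischemic kidneys 0 of 10 members were called by limma, 3 had an unadjusted p under 0.05, and 0.140% of all genes were called higher and 0.517% lower in TLR4 null kidneys. The 3 were Klf4 (-0.40, unadjusted p = 0.0227, adjusted p = 0.331), Klf2 (-0.37, unadjusted p = 0.0176, adjusted p = 0.299) and Klf6 (-0.37, unadjusted p = 0.0164, adjusted p = 0.288). The genotypes did not overlap for 1 of 10 members, Klf2, where 14.7% of all genes did not overlap. In sham kidneys 0 of 10 members were called, 2 had an unadjusted p under 0.05, and 0.0908% of all genes were called higher and 0.223% lower in TLR4 null kidneys. The 2 were Klf6 (-0.59, unadjusted p = 0.000721, adjusted p = 0.109) and Klf5 (-0.50, unadjusted p = 0.023, adjusted p = 0.407), and for both the genotypes did not overlap, where 16.7% of all genes did not overlap. The other Klf5 probe set past the filter gave -0.13 in sham kidneys (limma unadjusted p = 0.587), where the genotypes overlapped. Without single arrays, the Klf5 sham difference ran from -0.72 to -0.26. The 5 Klf6 probe sets gave -0.59 to 0.13 in sham and -0.53 to -0.15 in ischemic kidneys. The 6 Klf3 probe sets gave -0.068 to 0.54 in ischemic and the 7 Klf9 probe sets -0.14 to 0.32 in sham kidneys. The highest Klf3 value had a limma unadjusted p of 0.000905 and an adjusted p of 0.101 over all probe sets. The highest Klf9 value had an unadjusted p of 0.00145 and an adjusted p of 0.182. For both of these probe sets the genotypes did not overlap. Without TLR4 null ischemic replicate 3 the Klf6 difference passed in both surgeries, at an adjusted p of 0.037 in sham and 0.0471 in ischemic kidneys. The sham difference itself stayed at -0.59, since that array is not a sham array. This was 1 of 23 alternative settings, and Klf6 passed under no other in either surgery. Over the 23, the difference ran from -0.69 to -0.20 in sham and from -0.54 to -0.25 in ischemic kidneys.

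The genes nearest to a member were those with the smallest root mean square difference from it over the 12 arrays, after each gene's log2 values were centred on their own mean. For Klf6 these were Ifrd1 (0.23), Hbegf (0.24), an EGF receptor ligand, and Cxcl2 (0.27), a neutrophil chemokine, beside a root mean square of 1.50 for Klf6 about its own mean. They were Eif4ebp1 (0.19), Mmp10 (0.20) and Sprr1a (0.22) for Klf5, beside 1.07 for Klf5 itself. Ube2g2 (0.13), Nipal1 (0.14) and 2410006H16Rik (0.15) were nearest to Klf4, beside 0.66 for Klf4 itself. For Klf15 the nearest were Sec14l3 (0.18), Tsc22d3 (0.20), a glucocorticoid-induced leucine zipper gene, and Fam107a (0.22), beside 0.70 for Klf15 itself. Myl12a, Defb1 and Atp8b1 were nearest to Klf7 (0.093 to 0.10), and Mypop, Calml4 and Tm7sf3 to Klf13 (0.10 to 0.12). For the 4 members without a call, the nearest were Mgll, Rlf and Slc35f5 to Klf2, Yars2, Zfp280d and Actl6a to Klf3, Itm2b, Uqcrfs1 and Abhd11 to Klf9, and Fmn1, Spindoc and Heca to Klf10. These are descriptions over 12 arrays that share the same 4 groups, so any gene with like group differences comes out near.

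**Figure D4:**
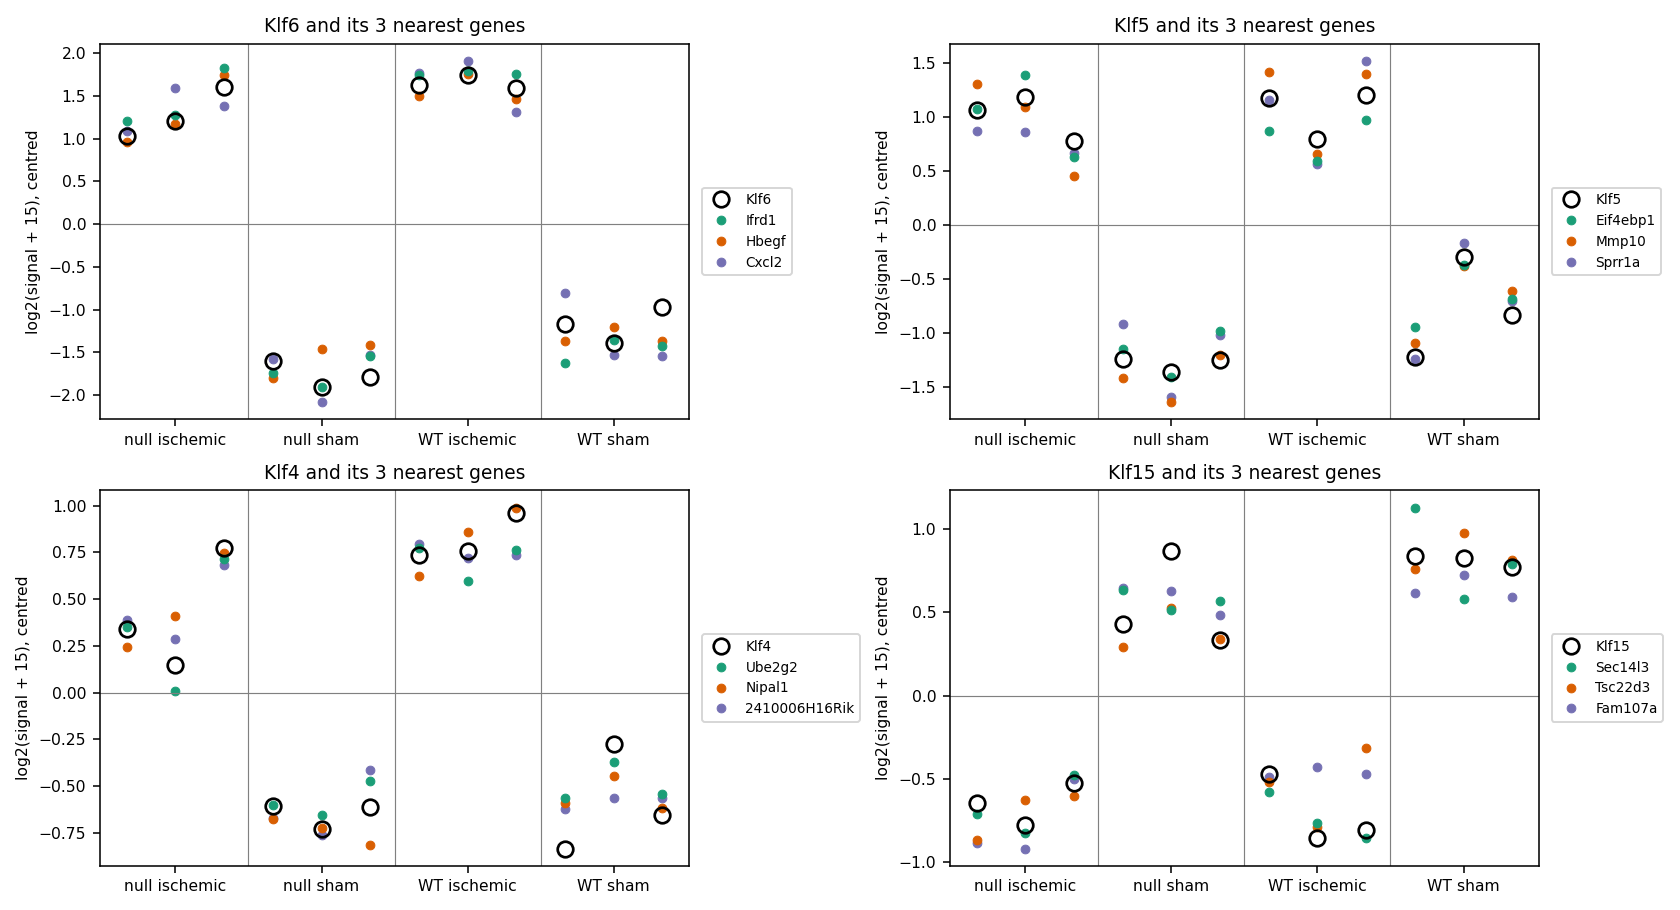
Centred log2 value on each of the 12 arrays for Klf6, Klf5, Klf4 and Klf15 (hollow rings) and for the 3 genes nearest to each (coloured points). The nearest genes of Klf6 follow it with a root mean square difference of 0.23 to 0.27, against a spread of 1.50 for Klf6 about its own mean.

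Counts of gene lists stand beside the shares of all genes given above, 9.86% higher and 11.7% lower in TLR4 null and 9.17% higher and 10.5% lower in wild-type kidneys, and beside medians over all genes of -0.072 in TLR4 null and -0.088 in wild-type kidneys. Of 12 other measured genes of the KLF and SP family, 1 was called higher and 1 lower in TLR4 null kidneys, and 1 higher and 0 lower in wild-type kidneys, with medians of 0.0019 in TLR4 null and -0.12 in wild-type kidneys, counts near or below the shares over all genes. The higher one was Klf16, at 0.57 ± 0.17 (limma adjusted p = 0.0225) in TLR4 null and 0.73 ± 0.17 (adjusted p = 0.00573) in wild-type kidneys. Klf12 gave -0.45 (adjusted p = 0.0422) in TLR4 null and -0.32 (adjusted p = 0.155) in wild-type kidneys. Over all 14322 genes, 0 were called for the difference of the responses. A gene of these lists called in 1 genotype only is therefore not shown to differ in response.

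Among genes upstream of the family in endothelium and in serum response (the ERK5, MEF2 and SRF list), 1 of 12 was called higher and 0 lower in each genotype, with medians of 0.17 in TLR4 null and 0.015 in wild-type kidneys. One gene of 12 is near the share of all genes called higher, so nothing is read from the list as a whole, and the genes named next are given for their own values. Mrtfa, a coactivator of serum response factor, gave 0.47 (limma adjusted p = 0.0865) in TLR4 null and rose by 0.61 ± 0.19 (adjusted p = 0.0315) in wild-type kidneys. The one in TLR4 null kidneys was Elk4, a partner of serum response factor, at 0.31 (adjusted p = 0.0491), named here after its value was seen. Of the 12 genes, 0 were called for the difference of the responses.

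Of 11 endothelial genes known as targets of KLF2 and KLF4, 3 were called higher and 1 lower in TLR4 null kidneys, and 5 higher and 1 lower in wild-type kidneys. Their median was 0.36 in TLR4 null and 0.52 in wild-type kidneys, beside -0.072 and -0.088 over all genes. The list was not split by whether KLF2 and KLF4 raise or lower a gene. Its counts and median therefore do not show targets following Klf4. Thbd, which encodes the anticoagulant receptor thrombomodulin, rose by 0.57 ± 0.13 (limma adjusted p = 0.00518) in TLR4 null and by 1.11 ± 0.13 (adjusted p = 2.17e-05) in wild-type kidneys. Nos3, the endothelial nitric oxide synthase, rose by 0.84 ± 0.15 in TLR4 null and by 0.90 ± 0.15 in wild-type kidneys. Tek, the angiopoietin receptor, was lower, at -1.28 ± 0.13 in TLR4 null and -1.07 ± 0.13 in wild-type kidneys. Plat, tissue plasminogen activator, gave 0.26 (adjusted p = 0.232) in TLR4 null and rose by 0.57 ± 0.14 (adjusted p = 0.00919) in wild-type kidneys. The other genes called higher were Edn1 (0.78, adjusted p = 0.0128) and Vcam1 (0.52, adjusted p = 0.0487) in wild-type kidneys. In TLR4 null kidneys the other was Sele (1.24, adjusted p = 0.0343). Edn1 at 0.38 and Vcam1 at 0.24 in TLR4 null kidneys, and Sele at 0.99 in wild-type kidneys, did not pass. Of the 11 targets, 0 were called for the difference of the responses. Of 11 general endothelial markers, 0 were higher and 5 lower in TLR4 null kidneys, and 0 higher and 2 lower in wild-type kidneys. Their summed signal was 3756 to 4300.4 in TLR4 null ischemic, 5104 to 5459 in TLR4 null sham, 4667 to 5774 in ischemic wild-type and 5767 to 7026 in sham wild-type kidneys. The part of cell numbers in the results for Klf2, Klf4 and their targets was not tested.

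Klf15 is known to be induced by glucocorticoids. Of 13 glucocorticoid-responsive genes, 4 were called higher and 5 lower in TLR4 null kidneys, and 4 higher and 4 lower in wild-type kidneys, with medians of -0.23 in TLR4 null and 0.018 in wild-type kidneys. Tsc22d3 was lower with Klf15, at -1.08 ± 0.12 (limma adjusted p = 1.16e-05) in TLR4 null and -1.39 ± 0.12 (adjusted p = 1.14e-06) in wild-type kidneys. Fkbp5, a co-chaperone of the glucocorticoid receptor, was also lower, at -0.80 ± 0.099 in TLR4 null and -0.95 ± 0.099 in wild-type kidneys. Mt2, a metallothionein, was higher by 1.32 ± 0.11 in TLR4 null and 1.09 ± 0.11 in wild-type kidneys. Gadd45b, a stress-inducible growth arrest gene, was higher by 1.78 ± 0.19 in TLR4 null and 1.74 ± 0.19 in wild-type kidneys. The list thus ran in both directions.

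KLF15 is also known as a regulator of branched-chain amino acid breakdown in muscle and liver of mice. Of 21 genes of that pathway, 0 were called higher and 14 lower in TLR4 null kidneys, and 0 higher and 9 lower in wild-type kidneys. Their medians were -0.35 in TLR4 null and -0.27 in wild-type kidneys, beside -0.072 and -0.088 over all genes. These counts were not recomputed with other array scalings. With arrays scaled to one median, genes called lower went from 1676 to 920 in TLR4 null kidneys over all genes. In wild-type kidneys they went from 1501 to 549. Ppm1k, the phosphatase that activates the branched-chain ketoacid dehydrogenase, was lower, at -0.73 ± 0.14 (limma adjusted p = 0.00147) in TLR4 null and -0.94 ± 0.14 (adjusted p = 0.000194) in wild-type kidneys. Dbt, a subunit of that dehydrogenase, gave -0.60 ± 0.10 in TLR4 null and -0.70 ± 0.10 in wild-type kidneys, and both passed. Bckdk, the kinase that inactivates the same dehydrogenase, was also lower. It gave -0.94 ± 0.11 (adjusted p = 3.49e-05) in TLR4 null and -0.55 ± 0.11 (adjusted p = 0.00316) in wild-type kidneys. The lower genes thus include both an activator and an inhibitor of the enzyme. Mmut, methylmalonyl-CoA mutase, was at -0.35 ± 0.073 in TLR4 null and -0.40 ± 0.073 in wild-type kidneys. Ivd, isovaleryl-CoA dehydrogenase, was at -0.40 ± 0.12 in TLR4 null and -0.61 ± 0.12 in wild-type kidneys, and both genes passed in both genotypes. Proximal tubule cells carry much of this pathway. Of 7 proximal tubule markers, 2 were lower in each genotype, where 11.7% of all genes were lower in TLR4 null and 10.5% in wild-type kidneys. The marker medians were -0.21 in TLR4 null and -0.080 in wild-type kidneys. With so few markers, this count cannot be set apart from those shares. The summed signal of those 7 was 46112 to 50005 in TLR4 null ischemic, 51777 to 56714 in TLR4 null sham, 41136 to 49663 in ischemic wild-type and 44410 to 50894 in sham wild-type kidneys. Their part in the result was not tested.

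Klf10 is named for its induction by TGF-beta. A list of 13 TGF-beta genes held ligand, receptor and transducer genes beside genes of the early response. Of these 13, 4 were called higher and 0 lower in TLR4 null kidneys, and 7 higher and 0 lower in wild-type kidneys, with medians of 0.30 in TLR4 null and 0.50 in wild-type kidneys. Smad3, a signal transducer of the pathway, rose by 0.97 ± 0.092 (limma adjusted p = 3.22e-06) in TLR4 null and by 0.93 ± 0.092 (adjusted p = 4.69e-06) in wild-type kidneys. Tgif1, a corepressor, rose by 1.37 ± 0.15 in TLR4 null and 1.26 ± 0.15 in wild-type kidneys, and the receptor gene Tgfbr2 by 0.76 ± 0.11 in TLR4 null and 0.69 ± 0.11 in wild-type kidneys. Smad7, an inhibitor of the pathway, gave 0.41 (adjusted p = 0.0539) in TLR4 null and rose by 0.97 ± 0.14 (adjusted p = 0.000209) in wild-type kidneys. Ccn2 gave 0.33 (adjusted p = 0.0804) in TLR4 null and rose by 0.71 (adjusted p = 0.00104) in wild-type kidneys. Skil gave 0.14 (adjusted p = 0.368) in TLR4 null and rose by 0.41 (adjusted p = 0.00904) in wild-type kidneys. The ligand gene Tgfb1 passed in both, at 0.56 in TLR4 null and 0.58 in wild-type kidneys. Of the 13 genes, 0 were called for the difference of the responses. Klf10 itself did not pass the test in either genotype.

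Klf6 rose together with immediate early transcription factor genes. Of 14 on that list, 13 were called higher and 0 lower in each genotype, with medians of 2.53 in TLR4 null and 3.00 in wild-type kidneys. Atf3 rose by 4.45 ± 0.33 in TLR4 null and 5.12 ± 0.33 in wild-type kidneys, and Egr1 by 4.08 ± 0.28 in TLR4 null and 4.61 ± 0.28 in wild-type kidneys. Ier2 rose by 2.25 ± 0.17 in TLR4 null and 2.68 ± 0.17 in wild-type kidneys, and Myc by 2.55 ± 0.18 in TLR4 null and 2.56 ± 0.18 in wild-type kidneys. All 4 passed the test in both genotypes. Egr3, the gene of the list that was not called, gave 0.029 in TLR4 null and -0.019 in wild-type kidneys. The list was chosen with earlier results of these data known, so its count is a description and not a test.

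Klf9 and Klf15 are known for daily rhythms. Of 18 clock genes, 6 were called higher and 2 lower in TLR4 null kidneys, and 7 higher and 3 lower in wild-type kidneys, with medians of 0.18 in TLR4 null and 0.052 in wild-type kidneys. Over all genes, 9.86% were called higher and 11.7% lower in TLR4 null and 9.17% higher and 10.5% lower in wild-type kidneys, so the lower count in TLR4 null kidneys is near its share. Bhlhe40 rose by 0.66 ± 0.11 in TLR4 null and 0.71 ± 0.11 in wild-type kidneys, and Dbp by 1.05 ± 0.19 in TLR4 null and 1.18 ± 0.19 in wild-type kidneys. Nr1d1 rose by 1.08 ± 0.28 in TLR4 null and 1.29 ± 0.28 in wild-type kidneys. Nfil3, a repressor of the clock output, gave 1.00 (limma adjusted p = 0.0594) in TLR4 null and rose by 2.18 ± 0.36 (adjusted p = 0.000485) in wild-type kidneys. Of the 18 clock genes, 0 were called for the difference of the responses.

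Markers of other cell types are counted beside the shares over all genes. These were 9.86% higher and 11.7% lower in TLR4 null, and 9.17% higher and 10.5% lower in wild-type kidneys. Of 5 neutrophil markers, 3 were called higher in each genotype, and their summed signal was 646 to 849.6 in TLR4 null ischemic, 332 to 460.1 in TLR4 null sham, 961 to 1502 in ischemic wild-type and 475 to 637 in sham wild-type kidneys. Of 7 macrophage markers, 1 was higher and 2 lower in TLR4 null kidneys, and 1 higher and 1 lower in wild-type kidneys. Of 9 distal tubule and collecting duct markers, 0 were higher and 4 lower in TLR4 null kidneys, and 0 higher and 2 lower in wild-type kidneys. Of 5 podocyte markers, 1 was lower in TLR4 null and 0 were called in wild-type kidneys, and of 5 smooth muscle and pericyte markers 1 was higher in wild-type and 0 were called in TLR4 null kidneys. With so few markers, the macrophage, podocyte and smooth muscle counts cannot be set apart from the shares over all genes. The same holds for the distal tubule and endothelial counts in wild-type kidneys. Nothing is read from these counts. None of 4 adipocyte, 3 lymphocyte and 1 erythroid markers were called, and the summed adipocyte signal ran from 203 to 2198 in TLR4 null ischemic, 502 to 1200.2 in TLR4 null sham, 445 to 3059 in ischemic wild-type and 1033 to 1955 in sham wild-type kidneys. The part of these cell types in the Klf results was not tested.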

How the data were processed

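Whole-kidney RNA was hybridised to 12 Affymetrix arrays. Per the submitters' processing notes, MAS5 made the deposited linear signal intensities, and its version is not given in the sources used here. The mean of the middle 96% of probe sets, as deposited, is 250.002 on every array, and this scaling was left as it was. Values were taken as log2(signal + 15), which understates differences of low signals. A gene was represented by its probe set past the filter with the highest mean log2 value. The platform annotation names 1 gene for 34945 probe sets, several for 932 and none for 9160, and 34741 of the single names matched the gene table. Groups came from the labels. Tests used limma 3.58.1 in R 4.3.3 (lmFit, eBayes with a trend, 8 residual degrees of freedom), two-sided, in 5 comparisons, and a fit of all probe sets. Steps were tested on simulated data. Promoters and figures used Python 3.11.15, pandas 2.3.3, numpy 2.4.6 and matplotlib 3.10.9.

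The members and gene lists were chosen with earlier results of these data known. The text names all members in all comparisons, up to 4 measured genes of each list with the smallest p in wild-type kidneys, Tlr4, and the 3 genes nearest to each member. Elk4, Edn1, Vcam1, Sele, Ccn2, Skil, Tgfb1, Egr3 and Bckdk were named after their values were seen. Alternatives were quantile and median scaling, pseudocounts of 1 and 60, no filter, a filter at the 60th percentile, averaging over a gene's probe sets, dropping the suffixes _x_at and _s_at, no trend, only the groups compared, a replicate block, and leaving out each array. The 3 arrays per group limit the precision of every value. Some listed genes are not analysed here.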

Additional observations from a re-analysis of the deposited data

How the results depend on the processing

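Each comparison was recomputed under 23 alternatives (22 for the difference of the responses), 12 of which leave out 1 array. Klf4, Klf5, Klf6 and Klf15 were called in both genotypes, and Klf13 in TLR4 null kidneys, under all of them, and no called value changed its sign. Klf7 was called under 21 in TLR4 null and 19 in wild-type kidneys, and Klf13 in wild-type kidneys under 6 of 23. With Klf13, 2 members rather than 1 were lower in wild-type kidneys under quantile scaling, the 60th-percentile filter, only the groups compared and the replicate block, and 1 to 2 without single arrays. Likewise 2 probe sets rather than 1 were lower there under the first 3 of these settings. Same-numbered arrays correlated at -0.06 to 0.10 in their deviations from the group means, and 5 of 12 arrays correlated best with their own number. This gave no sign of pairing by number, but with 3 arrays a group it cannot exclude pairing. The replicate block changed no other call. Over all genes, 1412 were called higher and 1676 lower in TLR4 null kidneys and 1313 higher and 1501 lower in wild-type kidneys. With arrays scaled to one median these counts were 1094 and 920 in TLR4 null and 1239 and 549 in wild-type kidneys, and the members' counts did not change. The counts of the gene lists were not recomputed under any alternative.

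Signs turned only in uncalled differences. With the mean of probe sets, Klf3 gave 0.15 in TLR4 null and -0.024 in wild-type kidneys, 0.17 for the difference of the responses and 0.19 between genotypes in ischemic kidneys, and Klf6 gave -0.12 for the difference of the responses. With quantile scaling, Klf3 gave -0.018 in wild-type kidneys, and the differences of the responses were 0.071 for Klf9 and -0.012 for Klf10. With median scaling, Klf9 gave 0.020 in wild-type kidneys, and the differences of the responses were -0.066 for Klf10 and -0.014 for Klf7. Without single arrays, the ranges that crossed 0 were as follows. In TLR4 null kidneys Klf2 ran from -0.17 to 0.014 and Klf3 from -0.28 to 0.013, and in wild-type kidneys Klf3 from -0.048 to 0.068 and Klf9 from -0.17 to 0.027. The difference of the responses ran from -0.29 to 0.0046 for Klf3, -0.055 to 0.17 for Klf7, -0.18 to 0.014 for Klf9, -0.13 to 0.22 for Klf10 and -0.28 to 0.069 for Klf13. Between genotypes in sham kidneys it was -0.17 to 0.015 for Klf2, -0.19 to 0.095 for Klf4, -0.14 to 0.0076 for Klf7 and -0.097 to 0.25 for Klf13. Between genotypes in ischemic kidneys it was -0.20 to 0.098 for Klf3, -0.18 to 0.068 for Klf5, -0.13 to 0.10 for Klf7, -0.067 to 0.13 for Klf9, -0.086 to 0.011 for Klf13 and -0.012 to 0.18 for Klf15. The count of members called lower in TLR4 null than in wild-type kidneys ran from 0 to 1 in each surgery, through Klf6. The causes were not tested. The number of arrays limits all of these.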
